A study of Mus musculus with 12 samples.

Results

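The comparison described here is that of CX3CR1-positive cells from dorsal mouse skin after carbon tetrachloride (CCl4) with the same kind of cells after vehicle. Its members are the 6 skin libraries of a series of 12 samples, 3 from CCl4-treated and 3 from vehicle-treated mice. Of 57180 genes in the deposited table, the 13767 that reached 1 TPM in 3 or more of the skin libraries entered the test. TPM is a share of all transcripts, corrected for transcript length, so levels of different genes can be set side by side, but the number of reads behind a value is unknown.

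The series asks, by its title, how liver injury by CCl4, a solvent toxic to hepatocytes, could act through the protein midkine on immune cells of the skin and on touch-evoked itch. All 6 skin libraries came from Cx3cr1-creER:Ai9 mice, in which a tamoxifen-dependent Cre recombinase driven by Cx3cr1 switches on a permanent red fluorescent reporter. The libraries were made by smart-seq, an amplification method for very little RNA. The sources used here do not give the dose and duration of CCl4, the composition of the vehicle, the tamoxifen schedule, the sort gates, or how old the animals were and of which sex. The labels call the 3 libraries of each group biological replicates without saying how many mice went into each, so every p-value below measures only the spread between these libraries. Replicates are numbered as in the sample titles, and values in a series follow the order replicate 1, 2, 3.

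Cx3cr1 encodes the fractalkine receptor, a chemokine receptor of monocytes, many tissue macrophages, some dendritic cells and some lymphocytes. Skin holds several cells of this kind. Dermal macrophages take up debris and display Adgre1 (F4/80), Csf1r and Mrc1, Langerhans cells of the epidermis display Cd207 and MHC class II, dermal dendritic cells carry antigen to lymph nodes, and epidermal gamma delta T cells sit among keratinocytes. Because the reporter is permanent, a cell can carry it after Cx3cr1 itself has been switched off.

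The label was checked first against marker genes, and the libraries did not hold one kind of cell. Cx3cr1 (ENSMUSG00000052336) was at 3.91, 0.27 and 0.91 TPM after vehicle, against 5.28, 0 and 0.28 TPM after CCl4. It reached 1 TPM only in replicate 1 of each group and so was not among the genes tested. Ptprc, the pan-leukocyte marker CD45, was at 233, 243 and 51.9 TPM after vehicle, against 181, 29.7 and 18.4 TPM after CCl4. Leukocyte RNA was therefore present in all 6 libraries, at levels that overlapped between the groups.

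CCl4 replicate 3 stood apart from the other 5 libraries. Csf1r, the receptor that keeps macrophages alive, was at 76.7, 483 and 44.5 TPM with vehicle, at 59.6 and 36.9 TPM in CCl4 replicates 1 and 2, and at 2.12 TPM in CCl4 replicate 3. Mrc1, the mannose receptor CD206, was at 91.2, 342 and 33.0 TPM with vehicle, at 52.1 and 28.3 TPM in CCl4 replicates 1 and 2, and was listed at 0 in CCl4 replicate 3. Of 22 genes of a resident macrophage list, 11 reached 1 TPM in that library and 7 were listed at 0, against 21 or 22 reaching 1 TPM and none at 0 in each of the others. The same library was rich in RNA of cornified envelope genes. Lce3c, a protein of the cornified envelope, was at 32418 TPM there and at 1755 TPM in vehicle replicate 3. It was at no more than 2.87 TPM in the other 4 libraries. Keratin, late cornified envelope, Sprr and other keratinocyte genes together held 13.5% of TPM in CCl4 replicate 3, and between 0.487% and 2.06% in the others. Late cornified envelope and Sprr genes alone held 10.5% there. Other keratinocyte genes were not uniformly high: of 18 differentiated keratinocyte genes tested, this library was highest for 8 and lowest for 7. A basal keratinocyte list was lowest there, at 0.0335% of TPM against 0.0909% to 0.276% in the others. List medians below are therefore given with and without this library, and the values in each library let its weight on single genes be read.

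**Figure D1:**
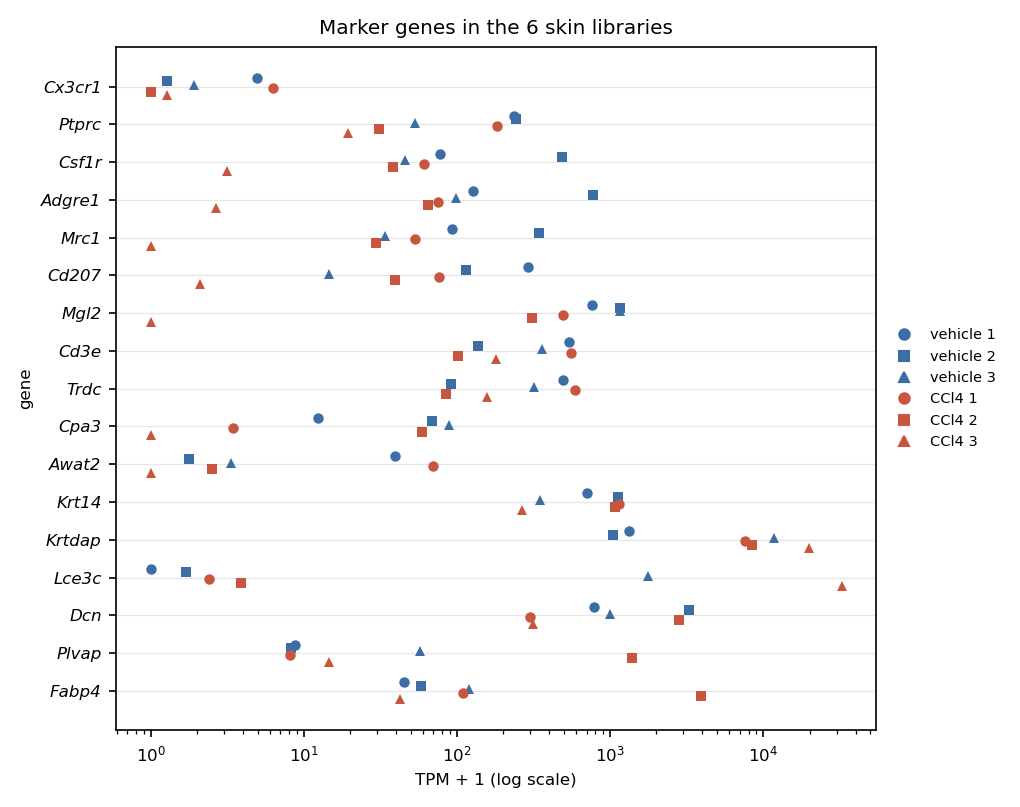
TPM + 1 (log axis) of marker genes for leukocytes, macrophages, dendritic cells, T cells, mast cells, sebocytes, keratinocytes, fibroblasts, endothelium and fat, with a point for each of the 6 skin libraries (blue, vehicle; red, CCl4; circle, square and triangle for replicates 1, 2 and 3). The red triangle, CCl4 replicate 3, is leftmost for Csf1r, Adgre1, Mrc1 and Mgl2 and rightmost for Lce3c, and the red square, CCl4 replicate 2, is rightmost for Plvap and Fabp4.

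Likeness between libraries did not follow treatment. Across the genes tested, the highest Pearson correlation of log2(TPM + 1) among the 15 pairs joined vehicle replicate 1 with CCl4 replicate 1, at 0.949. The lowest joined vehicle replicate 2 with CCl4 replicate 3, at 0.684. Pairs within a group ran from 0.722 to 0.885. These correlations are across genes, which are not independent replicates, and they describe the libraries only. The first principal component held 46.3% of the variance and placed vehicle replicates 1 and 2 and CCl4 replicate 1 at one end and vehicle replicate 3 and CCl4 replicate 3 at the other, with CCl4 replicate 2 between. The split by treatment held 15.0% of the variance over the genes tested, and that of the 2 libraries named with the number 1 against the other 4 held 28.7%. Any split of 6 libraries takes some share, so neither value measures an effect by itself. The median residual SD of a gene was 0.828 on the log2 scale, against 0.281 in the series' liver libraries. Those are labelled RNA-seq rather than smart-seq, and 10385 genes passed the same filter in them. The 2 values therefore differ in tissue, mouse strain, assay and gene set.

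**Figure D2:**
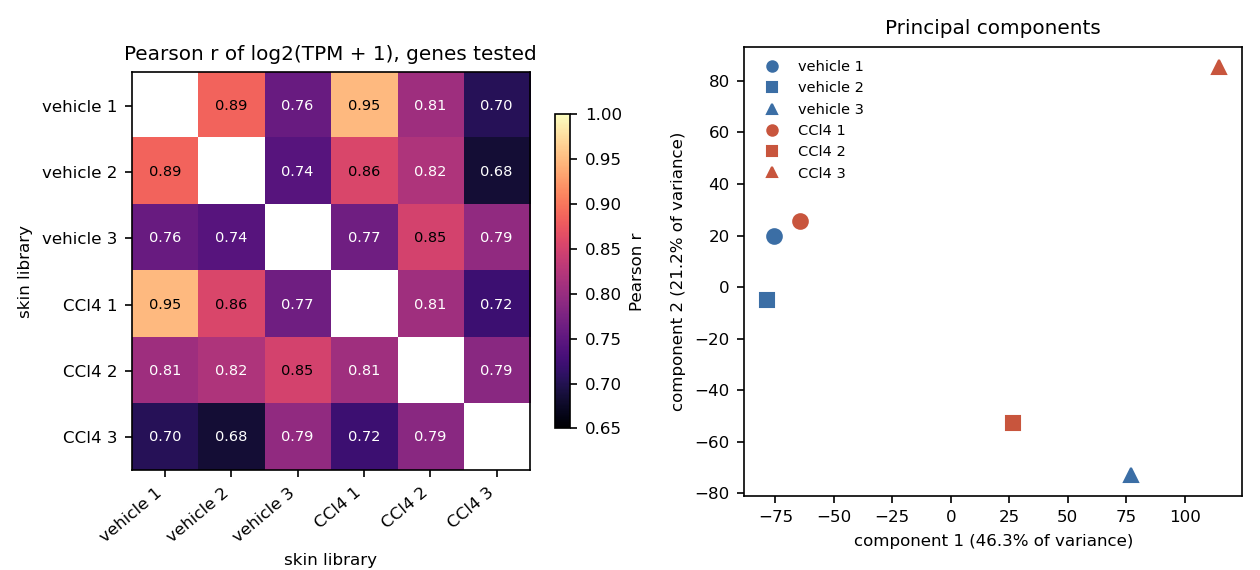
Left, Pearson r of log2(TPM + 1) over the genes tested for each pair of skin libraries; right, the libraries on the first 2 principal components, coloured by treatment. Replicate 1 of both groups lie together (r 0.949), and the red and blue points do not separate by colour.

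The makeup of each library was summarised by the share of TPM that 25 lists of cell type markers held. In bulk libraries of this kind, fewer cells of a type and less RNA per cell cannot be told apart. The resident macrophage list held 0.330%, 1.24% and 1.61% with vehicle and 0.312%, 0.526% and 0.0266% with CCl4 (2-sided exact permutation p = 0.2). Conventional dendritic cell genes held 0.301%, 0.338% and 0.201% with vehicle and 0.187%, 0.0662% and 0.00318% with CCl4, without overlap (2-sided exact permutation p = 0.1, the smallest that 3 against 3 allows). A Langerhans cell list held 3.18%, 3.28% and 2.71% with vehicle and 1.99%, 0.903% and 0.0826% with CCl4, also without overlap and at p = 0.1 in the same exact test. That list is 95.5% Cd74, a gene that all MHC class II cells share, and its defining gene Cd207 overlapped: 289, 114 and 13.6 TPM after vehicle, against 74.8, 38.2 and 1.08 TPM after CCl4. After Benjamini-Hochberg adjustment over the 25 lists every p was 1.0.

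Each library had a signature of its own. Vehicle replicate 2 was richest in macrophage membrane genes, with Adgre1 at 767 TPM against 126 TPM or less elsewhere, and F13a1, a coagulation factor subunit made by macrophages, at 586 TPM against 113 TPM or less. Vehicle replicate 3 joined complement and lymphocyte genes. C1qb, a chain of the first complement component, was at 4462 TPM there, the cytotoxic granule gene Nkg7 at 3641 TPM and Cd3g, a chain of the T cell receptor complex, at 2808 TPM. That library also gave 80478 TPM, the largest value among its genes, to an identifier with no symbol (ENSMUSG00002076161), and genes without a symbol held 10.7% of its TPM against 1.99% to 4.08% in the others. It was the lowest of the 6 libraries for 33.7% of the genes tested, and vehicle replicate 2 was the highest for 33.7%.

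Replicate 1 of both groups shared genes of the sebaceous gland. Awat2, a wax synthase of sebocytes, was at 38.4 TPM with vehicle and 68.5 TPM with CCl4 in replicate 1, and at no more than 2.34 TPM in the other 4 libraries. Elovl3, a fatty acid elongase, was at 91.6 and 81.5 TPM in the same 2 libraries and at no more than 7.06 TPM elsewhere. Tnfrsf9, the costimulatory receptor 4-1BB, was at 948 and 973 TPM in them and at no more than 59.5 TPM elsewhere. In all, 209 genes were at least 4 times higher (TPM + 1) in both of these libraries than in any other, and 15 were at least 4 times lower. Gamma delta T cell genes were high in both, with Trdc at 487 and 584 TPM, but also in vehicle replicate 3, at 316 TPM.

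CCl4 replicate 2 was the only library with high endothelial and fat genes. Plvap, a protein of the diaphragm of capillary pores, was at 1383 TPM there and at no more than 56.5 TPM elsewhere. The venule receptor Ackr1 was at 1373 TPM there and at no more than 11.7 TPM elsewhere. Fabp4, a fatty acid carrier of fat cells and capillaries, was at 3926 TPM against 118 TPM or less. The endothelial list held 0.486% of TPM in this library and 0.00564% to 0.0160% in the others, and the adipocyte list 0.800% against 0.00913% to 0.103%. Its cytokine genes stood out as well, with Csf3 (G-CSF) at 2629 TPM and Il6 at 1901 TPM, against at most 62.8 and 181 TPM elsewhere. Whether the cytokines came from the endothelial, fat or leukocyte RNA of this library was not tested.

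**Figure D3:**
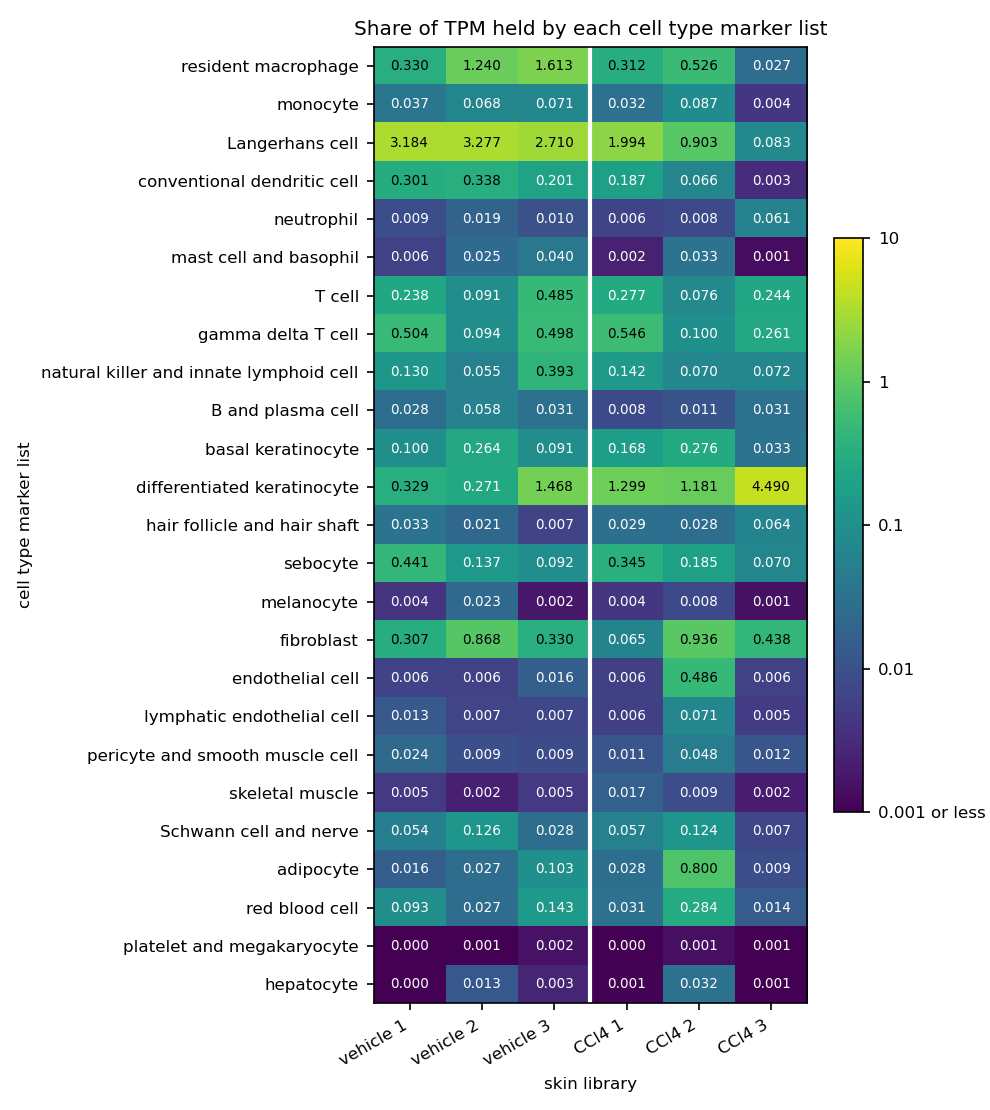
Percent of summed TPM held by each of 25 cell type marker lists (rows) in the 6 skin libraries (columns), with the value in each cell and colour on a log scale. The resident macrophage row runs from 1.61% in vehicle replicate 3 to 0.0266% in CCl4 replicate 3, and the endothelial and adipocyte rows are bright in CCl4 replicate 2 alone.

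Against that spread, no gene passed the test for CCl4 against vehicle. limma, fitted to log2(TPM + 1) over all 13767 genes, called 0 genes (0%) at a Benjamini-Hochberg adjusted p under 0.05. The smallest adjusted p was 0.222, for a gene without a symbol (ENSMUSG00002076476) at 70.0, 31.7 and 25.2 TPM with vehicle and listed at 0 in all 3 CCl4 libraries. At an unadjusted p under 0.05 there were 113 genes higher with CCl4 (0.821% of those tested) and 175 lower (1.27%). In 352 genes (2.56%) every CCl4 library was above every vehicle library, and in 375 genes (2.72%) every CCl4 library was below. CCl4 replicate 3 was the highest library in 218 of the former and the lowest in 244 of the latter. Without it, 667 genes (4.84%) lay above and 769 genes (5.59%) below, shares that are higher in part because 2 libraries are easier to keep apart from 3 than 3 are. Genes free of overlap stay so when a library is left out, so such counts cannot fall in any list. In 1838 genes (13.4% of those tested) the group means were at least 1 apart on the log2 scale. The median standard error of a difference was 0.700, so a gap of that size does not by itself set a gene apart. The sign of the difference was the same without CCl4 replicate 3 in 76.2% of the genes, and without vehicle replicate 2 in 79.1%.

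Among the genes with the lowest p whose groups did not overlap, several of those higher with CCl4 code for proteins of the cornified envelope. Sprr2d (ENSMUSG00000042212), a small proline-rich protein that is cross-linked into the cornified envelope, was at 6.12, 1.85 and 5.11 TPM after vehicle, against 43.9, 24.1 and 64.8 TPM after CCl4. Its difference on the log2(TPM + 1) scale was 3.07 ± 0.69 (SE), with a limma adjusted p of 1.0, and it was 2.75 without CCl4 replicate 3. Lce1a2 and Lce1l, late cornified envelope genes, Kprp, a keratinocyte proline-rich protein, Cdsn, the corneodesmosome protein that holds dead cells together, and Cst6, a cysteine protease inhibitor of the barrier, followed the same order. Cdsn was at 6.27, 6.76 and 14.2 TPM after vehicle, against 40.9, 25.2 and 190 TPM after CCl4. That CCl4 replicates 1 and 2 also lay above all vehicle libraries follows from how these genes were chosen. Cst6 was at 67.7, 38.6 and 181 TPM after vehicle, against 231, 450.3 and 365 TPM after CCl4. Sprr2e, Pglyrp3, a peptidoglycan-binding antibacterial protein, and Cyp1a1, which the aryl hydrocarbon receptor switches on, were also higher. Cyp1a1 was at 5.55, 0.21 and 2.65 TPM after vehicle, against 6.20, 25.5 and 45.5 TPM after CCl4, so that replicate 1 of the groups differed little.

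Lower with CCl4 were 10 genes chosen by the same rule, among them lectins and scavenger receptors. Marco (ENSMUSG00000026390), a scavenger receptor for bacteria and particles, was at 23.2, 18.5 and 9.12 TPM after vehicle, against 3.87, 0.67 and 0 TPM after CCl4. Its difference was -3.07 ± 0.77 (SE) with a limma adjusted p of 1.0, and -2.56 without CCl4 replicate 3. Cd209e, a lectin of the DC-SIGN family, was at 105, 116 and 135 TPM after vehicle, against 25.2, 22.6 and 0 TPM after CCl4. The 3 vehicle values lay close together, and CCl4 replicates 1 and 2 did too. Ccr2, the receptor that brings monocytes into tissue, was at 10.5, 26.1 and 18.6 TPM after vehicle, against 5.25, 2.08 and 0 TPM after CCl4. Clec4g, Nxpe5, Slamf9, Dcstamp, which is needed for fusion of osteoclasts, Cd226, an activating receptor chiefly of T and natural killer cells, Fgd2 and Siglece, an inhibitory sialic acid receptor, had the same order. Their differences ran from -2.44 for Siglece to -3.21 for Dcstamp, with adjusted p of 1.0 by limma for each.

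**Figure D4:**
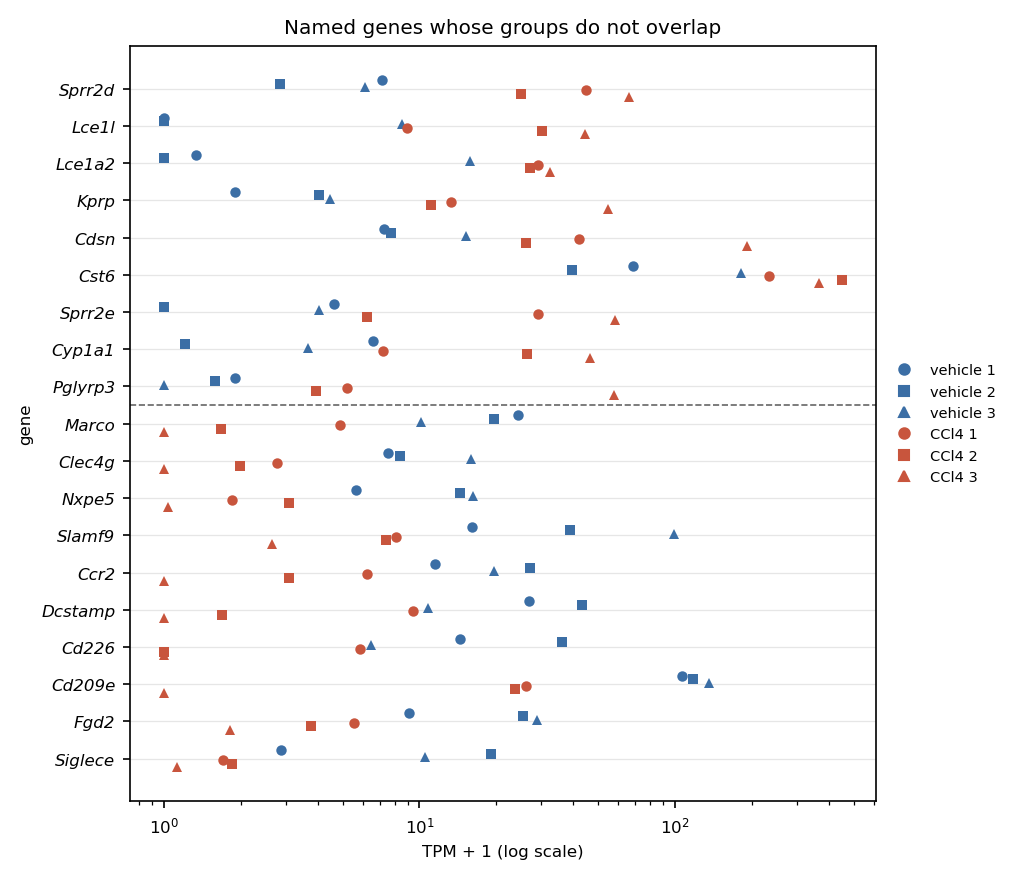
TPM + 1 (log axis) in each skin library of genes with the lowest p in each direction whose groups did not overlap, above the dashed line those higher and below it those lower with CCl4. Within each gene all red points lie on one side of all blue points, which is how the genes were chosen, and CCl4 replicate 3 is often but not always the outermost.

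MHC class II was the gene group in which most members were lower in every CCl4 library. These genes build and load the molecule that shows antigen to helper T cells, and none of the 17 tested passed at an adjusted p of 0.05. The levels of 10 of the 17 did not overlap, all 10 lower with CCl4, against 2.72% of all genes. Without CCl4 replicate 3 the count was also 10, against 5.59%, but leaving out a library could not have lowered it. Cd74 (ENSMUSG00000024610), the invariant chain that guides class II molecules to the endosome, was at 30414, 31489 and 26765 TPM after vehicle, against 19101, 8268 and 45.0 TPM after CCl4. The vehicle values lay within a narrow range and the CCl4 values did not, and the difference of -3.93 was -1.23 without CCl4 replicate 3. H2-Ab1, a beta chain of the molecule itself, was at 16569, 13547 and 15705 TPM after vehicle, against 9938, 4738 and 20.7 TPM after CCl4. H2-DMb1, a chain of the peptide editor, was at 373, 432 and 693 TPM after vehicle, against 152, 147 and 4.79 TPM after CCl4. Ciita, the transcriptional activator of the whole group, was lower by the same order, at 8.52, 10.5 and 7.41 TPM after vehicle, against 3.50, 1.85 and 0.15 TPM after CCl4. Rfxap, a subunit of the factor that binds class II promoters in all cells, was the exception, at 36.5, 39.1 and 34.6 TPM after vehicle, against 38.8, 49.2 and 59.5 TPM after CCl4.

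The size of the class II difference varied with the libraries used and with the covariates in the fit. The 17 genes together held 6.88%, 6.76% and 5.83% of TPM with vehicle and 4.22%, 1.88% and 0.0278% with CCl4. Their median difference was -2.42 on the log2 scale with all 6 libraries and -1.19 without CCl4 replicate 3, beside -0.05 and -0.04 over all genes. With the log2 summed level of keratinocyte genes as a covariate the median was -0.29, and with that of resident macrophage genes -0.66. Under the keratinocyte covariate Cd74 stood at -0.12, and H2-Aa and H2-Eb1 turned to 0.29 and 0.31. Both covariates were measured in the same libraries and differed in mean between the groups, so a difference in class II per cell and a difference in the mix of cells cannot be told apart here. MHC class I genes, which most cells express, differed less: their median was -0.50, and -0.11 without CCl4 replicate 3. None of the 15 was free of overlap, beside 2.72% of all genes lower and 2.56% higher.

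Macrophage and dendritic cell markers were lower with CCl4 in number, but mostly with overlap. Of 22 resident macrophage genes, 21 had a difference below 0 and CCl4 replicate 3 was the lowest library for all 22. The levels of 3 did not overlap, all lower, beside 2.72% of all genes. Adgre1 (ENSMUSG00000004730) was at 126, 767 and 97.2 TPM after vehicle, against 73.8, 63.6 and 1.65 TPM after CCl4, a difference of -3.18, and of -1.61 without CCl4 replicate 3. Fcrls, an Fc-receptor-like protein of tissue macrophages and microglia, was at 144, 474 and 243 TPM after vehicle, against 44.1, 76.7 and 0 TPM after CCl4, a difference of -4.08, and of -2.12 without that library. Stab1, a scavenger receptor, was the third of the 3. The list's median difference was -2.52, and -1.03 without CCl4 replicate 3, when 19 of the 22 were below 0. All 15 dendritic cell genes tested were below 0, with a median of -1.95, and 13 of 15 without that library, with a median of -0.74. Mgl2 and Cd209a, lectins of dermal dendritic cells that bind glycans, were the 2 of 15 free of overlap and lower, beside the same 2.72%. Mgl2 was at 764, 1162 and 1152 TPM after vehicle, against 488, 308 and 0 TPM after CCl4, a difference of -4.24, and of -1.37 without CCl4 replicate 3. Ccr7, which guides mature dendritic cells to lymph nodes, overlapped at 1266, 774 and 22.6 TPM after vehicle, against 707, 40.1 and 1.74 TPM after CCl4.

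Among genes for uptake and sensing of microbes, too, some members were lower in every CCl4 library. Of 43 lysosome and phagocytosis genes, 37 were below 0 with all libraries and 37 without CCl4 replicate 3, with medians of -0.88 and -0.48. The levels of 6 did not overlap, all lower, beside 2.72% of all genes: Marco, Stab1, Fcgr2b, the inhibitory Fc receptor, Tyrobp, an adaptor for activating receptors, Ctss and Ctsc, cathepsin proteases. Fcgr2b was at 214, 367 and 433 TPM after vehicle, against 96.8, 136 and 8.05 TPM after CCl4, a difference of -2.71, and of -1.49 without CCl4 replicate 3. Of 27 pattern recognition genes, 5 were free of overlap and lower, beside the same 2.72%: Tlr7, Tlr8, Casp1, Aim2 and Clec4n, known as dectin-2. The median of the 27 was -1.28 with all libraries but -0.08 without CCl4 replicate 3. Clec4n was at 172, 186 and 137 TPM after vehicle, against 59.1, 79.8 and 25.6 TPM after CCl4. Its difference was -1.71, and -1.24 without CCl4 replicate 3.

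Keratinocyte genes had higher means with CCl4 in most late-stage members, by an amount that depended on the libraries. The 18 tested genes of a differentiated keratinocyte list had a median difference of 0.84, and 1.04 without CCl4 replicate 3, when 17 of 18 were above 0. Without the 2 libraries named with the number 1 it was 0.19. Dmkn, a secreted protein of the upper epidermis, was at 702, 528 and 907 TPM after vehicle, against 1469, 1396 and 3372 TPM after CCl4, and Sprr1b was the other of 2 free of overlap and higher, beside 2.56% of all genes. Krtdap, made by cells leaving the basal layer, overlapped through vehicle replicate 3: 1329, 1048 and 11735 TPM after vehicle, against 7599, 8428 and 19821 TPM after CCl4. The 11 basal keratinocyte genes had a median of -0.37, with 2 above 0, and of 0.24 without CCl4 replicate 3, with 9 above 0. The difference between the 2 lists was not tested. Krt14, the keratin of the basal layer, was at 709, 1128 and 348 TPM after vehicle, against 1133, 1078 and 264 TPM after CCl4. The Lce and Sprr genes, taken by symbol after their values had been seen, held 0.0394%, 0.0284% and 0.561% of TPM with vehicle and 0.163%, 0.0659% and 10.5% with CCl4, with overlap. Of 26 tested, 25 were above 0 and 5 were free of overlap and higher, beside 2.56% of all genes, and CCl4 replicate 3 was the highest library for 23. Their median of 2.33 was 1.11 without that library. These are families of near-identical genes, and the sources used here do not say how reads were shared between copies, so values of single members are uncertain.

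Itch and neuroimmune mediators were listed because the study is about itch. Of 30 tested, 15 were above 0 and 15 below, with a median of -0.08, and of 0.22 without CCl4 replicate 3. The levels of 4 were free of overlap and higher, beside 2.56% of all genes, and of 3 lower, beside 2.72%. Ptges and Ptgs1, which make prostaglandin E2 and its precursor, were higher with CCl4. Ptges was at 11.4, 18.5 and 18.0 TPM after vehicle, against 26.9, 84.7 and 153 TPM after CCl4. Ptgs1 was at 7.49, 18.7 and 11.9 TPM after vehicle, against 29.0, 32.1 and 37.8 TPM after CCl4. Lgals3, galectin-3, a lectin of macrophages and epithelia, was higher as well, at 4710, 4308 and 3098 TPM after vehicle, against 8870.0, 5361 and 4730.0 TPM after CCl4. Lower were Alox5 and Alox5ap, which start leukotriene synthesis, and Ctss, a protease that can activate receptors on itch fibres. Il31, the itch cytokine, was listed at 0 in all 6 libraries, and Tslp, an epithelial itch cytokine, overlapped at 6.83, 13.5 and 17.2 TPM after vehicle, against 5.54, 8.56 and 32.1 TPM after CCl4.

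Of the midkine genes, the ligand itself overlapped. Mdk (ENSMUSG00000027239), a heparin-binding growth factor, was at 0.93, 1.24 and 3.64 TPM after vehicle, against 2.43, 23.2 and 20.5 TPM after CCl4. CCl4 replicates 2 and 3 were above all vehicle libraries, and CCl4 replicate 1 was below vehicle replicate 3. The difference was 2.16 ± 0.87 (SE; limma unadjusted p = 0.0344, adjusted p = 1.0) and 1.75 without CCl4 replicate 3. CCl4 replicate 2 was also the library with endothelial and fat RNA, and CCl4 replicate 3 the one with the most cornified envelope RNA. The part of the cells that make these RNAs in the Mdk level was not tested. Ptn, its only relative, was at 11.5, 32.2 and 24.4 TPM after vehicle, against 3.75, 82.3 and 0.70 TPM after CCl4. Among proposed receptors, Lrp1 was at 24.7, 86.6 and 16.7 TPM after vehicle, against 19.8, 37.0 and 9.53 TPM after CCl4. Sdc4, a heparan sulfate carrier, was at 288, 382 and 23.6 TPM after vehicle, against 243, 129 and 29.7 TPM after CCl4, and Ncl, nucleolin, at 185, 231 and 35.7 TPM and 210.3, 128 and 155 TPM. All 3 overlapped between groups. Ptprz1 stayed at or below 2.86 TPM and Alk at or below 0.56 TPM in every library, and neither was tested. Of the 15 tested genes of the midkine list, Cd74 alone was free of overlap and lower, beside 2.72% of all genes.

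The direction of inflammatory groups depended on the library set. The chemokine list of 35 genes had a median difference of -1.73, with 27 below 0, but of -0.07 without CCl4 replicate 3, with 18 below 0. Of the 35, 4 were free of overlap and lower, beside 2.72% of all genes, and 0 were higher. Without CCl4 replicate 3, 4 were lower and 4 higher, beside 5.59% and 4.84%. Ccl8, a monocyte attractant of skin macrophages, was at 4607, 11475 and 29872 TPM after vehicle, against 2828, 7064 and 36.7 TPM after CCl4. Ccl2, the main monocyte attractant, ran from 1664 to 1987 TPM with vehicle and was at 2174, 7546 and 1078 TPM with CCl4. Interferon response genes had a median of -0.65, with 34 of 36 below 0, and of 0.29 without that library, with 26 of 36 above 0. Il1b was at 4718, 3653 and 431 TPM after vehicle, against 2603, 330.5 and 3.05 TPM after CCl4, and Tnf at 80.6, 213 and 37.4 TPM and 152, 75.2 and 2.90 TPM. Both overlapped. Il18, another cytokine of the interleukin-1 family, did not: 126, 112 and 81.1 TPM after vehicle, against 49.1, 34.8 and 10.2 TPM after CCl4. Of 30 inflammatory cytokine and NF-kB genes, 1 was free of overlap and lower and 1 higher, beside 2.72% and 2.56% of all genes. Immediate early genes, which also respond to cell dissociation, had a median of -0.05 with all libraries, 0.68 without CCl4 replicate 3 and -0.53 without vehicle replicate 3. Fosl1, a late AP-1 subunit, was the only one of 29 free of overlap, a share near the 2.56% of all genes that were higher. It was at 64.9, 112 and 11.8 TPM after vehicle, against 134, 194 and 251 TPM after CCl4.

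**Figure D5:**
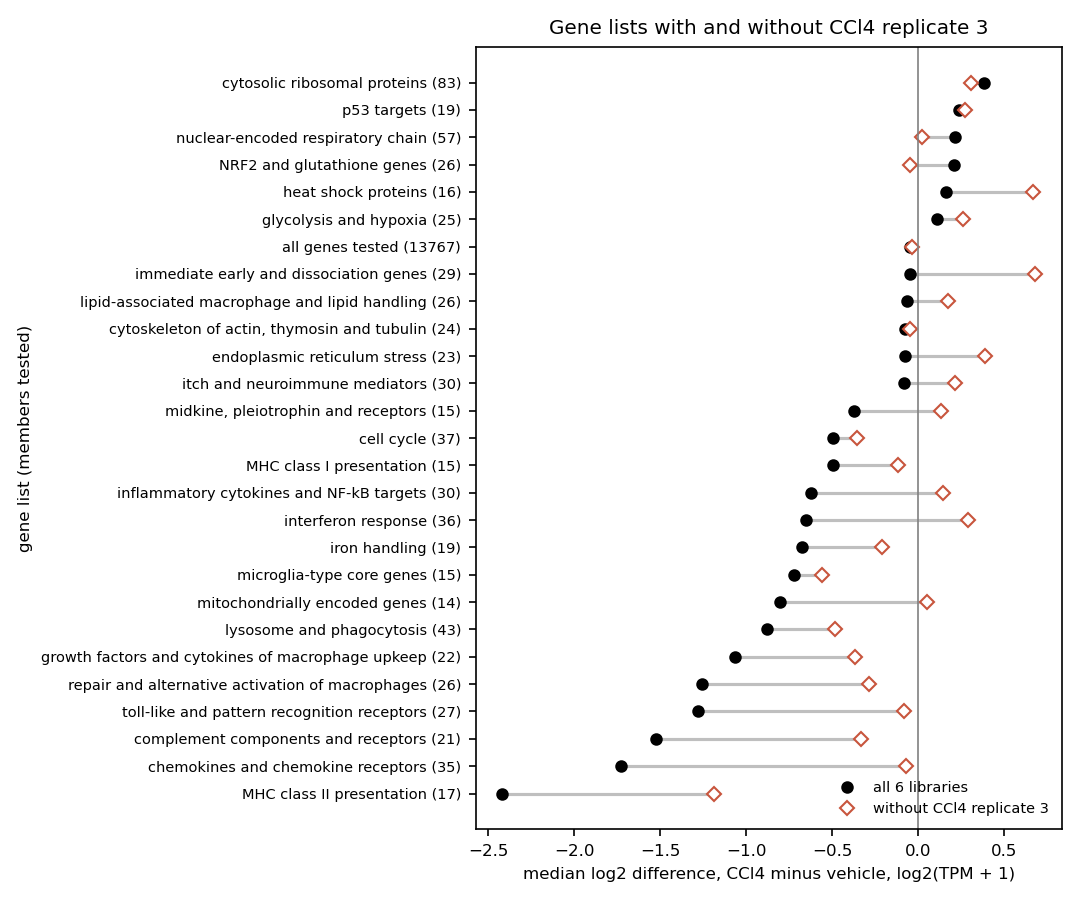
Median log2 difference (CCl4 minus vehicle, log2(TPM + 1)) of each functional gene list with all 6 libraries (filled circles) and without CCl4 replicate 3 (open diamonds), with the number of members tested in brackets. The MHC class II list stays lowest, at -2.42 and -1.19, the cytosolic ribosomal protein list stays above 0, at 0.39 and 0.31, and the chemokine and interferon lists move to or past 0.

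Cytosolic ribosomal protein genes were the group with the most members higher in every CCl4 library. They code for the proteins of the translation machinery and held 4.50%, 3.95% and 4.64% of TPM with vehicle and 5.51%, 5.22% and 6.50% with CCl4, without overlap. Of 83 tested, 81 were above 0 and 24 were free of overlap, all 24 higher, against 2.56% of all genes. Without CCl4 replicate 3, 78 were above 0 and 28 free of overlap, against 4.84%. None passed the test. Rplp0 (ENSMUSG00000067274), of the ribosomal stalk, was at 842, 759 and 652 TPM after vehicle, against 1290.3, 1083 and 1464 TPM after CCl4, a difference of 0.77 ± 0.45 (SE). The median difference of the list was 0.39, and it lay between 0.23 and 0.52 under all 26 alternative analyses. TPM values sum to the same total in every library, so a higher share of one group implies a lower share of others.

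Cell cycle and p53 genes included members without overlap, none of which passed the test. Of 37 cell cycle genes 7 were free of overlap, all lower with CCl4, beside 2.72% of all genes: Top2a, Ccna2, Ccnb1, Ccnb2, Birc5, Aurkb and Ube2c, which act in DNA decatenation and mitosis. Top2a was at 7.69, 8.67 and 5.59 TPM after vehicle, against 1.82, 1.54 and 0.07 TPM after CCl4. Without CCl4 replicate 3, 11 of the 37 were free of overlap and lower, beside 5.59% of all genes, and 3 higher, beside 4.84%. The median was -0.50, and -0.36 without it. The S phase gene Pcna overlapped, at 309, 242 and 153 TPM after vehicle, against 370, 339 and 130.0 TPM after CCl4. Of 19 p53 targets, 3 were higher without overlap, beside 2.56% of all genes, and 1, Sesn1, lower, beside 2.72%. The median was 0.24, and 0.28 without CCl4 replicate 3. Cdkn1a (ENSMUSG00000023067), the cell cycle inhibitor p21, was at 1757, 843 and 832 TPM after vehicle, against 2841, 4575 and 1953 TPM after CCl4, a difference of 1.45 ± 0.54 (SE; limma adjusted p = 1.0), and 1.75 without CCl4 replicate 3. The other 2 were Aen, a nuclease, and Ddit4, an inhibitor of mTOR signalling, which was at 3.49 TPM or less in every library. The mitochondrially encoded genes held 2.80%, 1.59% and 2.21% of TPM with vehicle and 2.57%, 1.78% and 0.462% with CCl4, and their median of -0.80 became 0.06 without CCl4 replicate 3.

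Of the stress, antioxidant and metabolic genes none passed the test, and list medians moved with the library left out. Endoplasmic reticulum stress genes had a median of -0.08 over 23 members, of 0.39 without CCl4 replicate 3 and of -0.66 without vehicle replicate 3. Of the 23, Ddit3, the stress factor CHOP, alone was free of overlap, a share near the 2.56% of all genes that were higher. It was at 98.2, 94.8 and 70.9 TPM after vehicle, against 135, 149 and 153 TPM after CCl4. Heat shock genes had a median of 0.17 with all libraries and none of 16 free of overlap, beside 2.56% of all genes higher and 2.72% lower. Without CCl4 replicate 3 the median was 0.67, with 4 of 16 free of overlap and higher beside 4.84% of all genes. Without vehicle replicate 3 it was -0.40, where all genes tested shifted to a median of -0.23. NRF2 and glutathione genes had a median of 0.21, and of -0.04 without CCl4 replicate 3. Of these 26 genes only Gstm1, a glutathione transferase, was free of overlap and higher, again near the 2.56% of all genes. Gstm1 was at 191, 153 and 168 TPM after vehicle, against 196, 491 and 306 TPM after CCl4. Replicate 1 of the 2 groups differed little in it. The NRF2 target Nqo1 was at 485 TPM in CCl4 replicate 3 and at 23.4 TPM or less in the other libraries. Aldoa, a glycolytic enzyme, was at 629, 515 and 544 TPM after vehicle, against 690.0, 786 and 1147 TPM after CCl4. Nuclear-encoded respiratory chain genes had 49 of 57 members above 0 with a median of 0.21, but of 0.02 without CCl4 replicate 3.

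Of 22 growth factor and cytokine genes of macrophage upkeep, 18 were below 0, with a median of -1.06, and of -0.37 without CCl4 replicate 3, when 14 were below 0. The levels of 1, Csf2ra, were lower and of 1, Cebpb, higher without overlap, beside 2.72% and 2.56% of all genes. Csf2ra, the GM-CSF receptor chain, was at 115, 108 and 104 TPM after vehicle, against 43.6, 40.2 and 8.43 TPM after CCl4. CCl4 replicates 1 and 2 were close to each other and the vehicle libraries were too, and the difference of -2.09 ± 0.71 (SE; limma adjusted p = 1.0) was -1.36 without CCl4 replicate 3. From other lists, Coro1a, an actin regulator of leukocytes, was at 111, 170 and 389 TPM after vehicle, against 87.6, 48.5 and 39.9 TPM after CCl4. Cebpb, a transcription factor of inflammatory myeloid cells and of keratinocytes, was higher, at 322, 245 and 456 TPM after vehicle, against 523, 680.3 and 576 TPM after CCl4. Spp1, osteopontin, overlapped at 146, 28.4 and 106 TPM after vehicle, against 124, 474 and 1094 TPM after CCl4. Of 21 complement genes 18 were below 0, and the median of -1.52 was -0.33 without CCl4 replicate 3. None of the 21 was free of overlap, beside the same 2.72% and 2.56% of all genes.

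Lymphocyte and stromal genes overlapped between the groups. None of 12 T cell, 6 gamma delta T cell, 9 natural killer and innate lymphoid, or 16 fibroblast genes was free of overlap. Over all genes 2.56% were free of overlap and higher and 2.72% lower, so finding none in lists this short is near those shares. Cd3e, a chain of the T cell receptor complex, was at 536, 137 and 355 TPM after vehicle, against 554, 100.2 and 178 TPM after CCl4, so replicates 1 were high and replicates 2 low in both groups. Dcn, a collagen-binding proteoglycan of fibroblasts, was at 778, 3260 and 1001 TPM after vehicle, against 298, 2788 and 310.3 TPM after CCl4. T cell genes had a median of -0.51, and of -0.46 without CCl4 replicate 3, and fibroblast genes of -0.65 and -0.60. Endothelial genes had a median of 1.66, of 2.49 without CCl4 replicate 3 and of -0.42 without CCl4 replicate 2. Adipocyte genes had a median of 0.36, of 1.76 without CCl4 replicate 3 and of -0.44 without CCl4 replicate 2.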

How the data were processed

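Gene levels were deposited by the authors as TPM, one table for all samples. Per the submitters' processing notes the tools were fastp, HISAT2, StringTie and RSEM and the build GRCm39; the sources used here do not give versions or roles, and the extraction protocol in the labels describes bulk poly(A) RNA rather than smart-seq. Counts were not used, so depth is unknown and no interval for counting error is given; genes above 0 TPM numbered 21328 to 28870 per library. Symbols came from GENCODE and RefSeq (GRCm38.p6) name tables for 51818 of 57180 identifiers.

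Genes reaching 1 TPM in 3 or more of the 6 skin libraries were analysed by limma 3.58.1 (R 4.3.3) on log2(TPM + 1), with a trended prior and 2-sided p-values adjusted by Benjamini-Hochberg over all genes tested. The pseudocount understates differences of low genes. Marker list shares were compared by exact permutation. Scripts were tested on simulated data. Planted changes there were large and the spread around them was below that of the libraries. That test therefore does not show what could be detected here. The members and lists were chosen with earlier results of these data known. Named genes were, beside a fixed set, the 10 lowest p in each direction without overlap at a mean TPM of at least 5, and in each list the 4 highest in level and 3 lowest in p; other genes named, those free of overlap in a list included, were chosen after their values were seen. Alternatives covered pseudocount, filter, scaling, weights, replicate numbers, covariates and left-out libraries; 3 of them, rescaling without keratinocyte genes, rescaling without genes lacking a symbol, and leaving out replicate 3 of both groups, were chosen after seeing the data. One item that the rule for named genes picks is not reported here.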

Additional observations from a re-analysis of the deposited data

How the results depend on the processing

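Of 26 alternatives, 24 called 0 genes, as did every fit without 1 library (0 to 0). With array weights limma called 1 gene, lower (ENSMUSG00002076476, adjusted p = 0.00411). A replicate block on the numbers in the library names called 264 genes, 86 higher and 178 lower, but only numbers 1 and 4 occur in both groups, so 4 libraries carry that comparison with 1 residual degree of freedom. The replicate block on the numbers in the titles called 0 genes (smallest adjusted p 0.156). Libraries with the same number in their titles correlated in their deviations from the group means at 0.587, 0.0923 and 0.350. Other pairings across the groups ran from -0.509 to 0.158. Vehicle replicate 2 with CCl4 replicate 3, both named with the number 4, gave -0.185. The main fit did not treat the numbers as pairs, and whether such libraries were prepared together was not tested. Genes at an unadjusted p under 0.05 numbered 288, from 125 with the macrophage covariate to 3183 with array weights. Without 1 library they ranged from 138 without vehicle replicate 2 and 157 without CCl4 replicate 3 to 722 without CCl4 replicate 1. Of all 13767 genes, 2715 kept their sign in all 26. Of 107 named or listed genes without overlap 105 did, which is no sign of stability, since leaving out a library cannot turn the sign of groups that do not overlap. The exceptions, with the keratinocyte covariate, were H2-Aa at 0.288 and H2-Eb1 at 0.312; the cause was not tested. The Langerhans list's share difference of -2.06 percentage points became -0.0319 when the mitochondrial and the 10 most abundant genes were left out before rescaling, and -0.0222 without its largest member; both drop Cd74. That of the hair follicle list became 0.0005 points without its largest member, Krt17. Depth limits could not be computed from TPM.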

Other observations

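Vehicle replicate 2 held transcripts of the intestine. The 22 alpha-defensin genes of the table, made by Paneth cells of the small bowel, summed to 5166 TPM there, to 0.56 TPM in vehicle replicate 1, to 2.30 TPM in CCl4 replicate 2 and to 0 in the other 3 libraries. Defa24 was at 1267 TPM and Reg3b, an intestinal antibacterial lectin, at 572 TPM in that library, and both were at 0.89 TPM or less in the others. Apoa1, made by liver and gut, was at 92.5 TPM there and at 6.83 TPM or less elsewhere. The hepatocyte list as a whole was highest in another library, CCl4 replicate 2. It held 0.0316% of TPM there, 0.0125% in vehicle replicate 2 and 0.00042% to 0.00255% in the others. Of its 17 genes, 14 reached 1 TPM in CCl4 replicate 2 and 11 in vehicle replicate 2. The source of these transcripts was not tested.

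Sex-linked transcripts differed between libraries of one group. Xist, made from the inactive X chromosome of females, was at 4.54, 7.15 and 0 TPM after vehicle, against 4.60, 0 and 1.26 TPM after CCl4. Summed Y-linked genes were at 1.05, 2.91 and 18.8 TPM after vehicle, against 0.70, 57.0 and 8.10 TPM after CCl4. The order of Xist therefore did not follow treatment, and replicate 1 of both groups had Xist with little Y-linked RNA.

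Mast cell genes marked a further difference in makeup. Cpa3, mast cell carboxypeptidase, was at 11.4, 67.6 and 87.5 TPM after vehicle, against 2.42, 58.3 and 0 TPM after CCl4. Immunoglobulin transcripts did not follow treatment, with Igkc, the kappa light chain, at 186, 399 and 2.08 TPM after vehicle, against 0.32, 0 and 79.6 TPM after CCl4. Il1rl1, the interleukin-33 receptor of mast cells and innate lymphocytes, was at 423 TPM in CCl4 replicate 3 and at 15.5 TPM or less in the other 5 libraries.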
